A study of Arabidopsis thaliana with 36 samples.

Results

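Young leaves of Arabidopsis thaliana were compared between late night and midday. The leaves were harvested at 21 days after sowing (DAS) at 2 of the 6 sampled times, ZT21 and ZT9, where ZT counts hours from lights on. The comparison uses 6 of the 36 libraries of the study, 3 for each time, and was chosen by the age and time in the labels. All plants were of the genotype Col-0, the common laboratory strain, with no mutant or treatment named, and were kept at 22 °C under white light of 100 µmol m−2 s−1, with 16 h of light and 8 h of dark. ZT9 therefore fell in the light and ZT21 in the dark, 12 h apart. The other times at 21 DAS (ZT1, 5, 13 and 17) give the spread between libraries and the course over the day. Leaves of 35 DAS (old) serve as a second pair of groups at the same times. Leaves were the 3rd to 4th of the rosette by the sample labels, while the series design mentions one leaf position. The replicates carry batch numbers in their titles and are described as biological ones. The 6 libraries are given as FPKM, with sums of 883964 to 943075 and 16389 to 16737 genes at 1 FPKM or more, and the steps between low values put their depth at an estimated 8.454 to 13.468 M fragments (M, 1e6). Library profiles correlated at 0.980 to 0.990 within a time and at 0.909 to 0.927 between times. Nothing says whether each library came from separate plants, so the p-values measure the spread between these samples, which may be partly technical.

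The plant circadian clock is a network of transcription factors that repress and activate each other in turn over the day. CCA1 and LHY, made around dawn, repress genes of the afternoon and evening by binding a short promoter sequence, the evening element. The pseudo-response regulators PRR9, PRR7, PRR5 and TOC1 follow one another through the day and repress CCA1 and LHY. The proteins ELF3, ELF4 and LUX form the evening complex, which represses further genes around dusk and at night. RVE8 and its relatives also bind the evening element and, with LNK proteins, activate genes that hold it. Light, sugar and the clock together time photosynthesis, starch turnover and nitrate use in leaves.

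The promoter sequences of 3 genes that were lower at ZT21 and of 2 that were higher are shown first, because the evening element was, of the 7 motifs searched, the one most unevenly spread between genes that fell and genes that rose. Each is the stretch of 250 bases before the annotated transcript start, read 5′ to 3′ on the strand of the gene from the RefSeq TAIR10.1 genome. Capitals mark the evening element (AAATATCT, or AGATATTT where it lies on the other strand) and the G-box (CACGTG), a site known for binding by light-responsive bZIP and bHLH factors.

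LUX (chr3:17182840-17183089, plus strand): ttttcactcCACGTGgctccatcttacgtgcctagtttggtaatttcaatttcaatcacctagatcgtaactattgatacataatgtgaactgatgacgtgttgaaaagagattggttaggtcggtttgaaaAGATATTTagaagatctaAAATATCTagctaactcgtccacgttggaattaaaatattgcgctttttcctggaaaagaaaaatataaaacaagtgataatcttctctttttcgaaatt

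COR15B (chr2:17709946-17710195, minus strand): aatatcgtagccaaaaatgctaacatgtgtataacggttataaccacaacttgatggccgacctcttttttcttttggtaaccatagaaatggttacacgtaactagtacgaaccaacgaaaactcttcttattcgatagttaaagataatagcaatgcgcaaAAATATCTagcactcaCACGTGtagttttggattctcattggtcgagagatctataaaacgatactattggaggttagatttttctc

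FKF1 (chr1:25508426-25508675, plus strand): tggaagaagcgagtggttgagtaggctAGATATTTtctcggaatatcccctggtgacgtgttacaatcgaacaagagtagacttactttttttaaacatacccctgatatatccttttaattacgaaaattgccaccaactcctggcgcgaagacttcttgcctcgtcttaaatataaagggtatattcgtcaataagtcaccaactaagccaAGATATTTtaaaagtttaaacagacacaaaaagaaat

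LHY (chr1:37841-38090, minus strand): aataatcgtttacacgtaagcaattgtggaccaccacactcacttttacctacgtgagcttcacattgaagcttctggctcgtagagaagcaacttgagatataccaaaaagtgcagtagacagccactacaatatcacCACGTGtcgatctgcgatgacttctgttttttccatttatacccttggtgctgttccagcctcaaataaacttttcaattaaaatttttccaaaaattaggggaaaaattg

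RVE8 (chr3:2946156-2946405, plus strand): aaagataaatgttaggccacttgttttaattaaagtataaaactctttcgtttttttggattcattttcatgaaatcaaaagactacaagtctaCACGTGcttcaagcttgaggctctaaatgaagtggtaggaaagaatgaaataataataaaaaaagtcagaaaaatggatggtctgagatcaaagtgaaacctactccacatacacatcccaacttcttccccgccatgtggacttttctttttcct

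LUX holds evening elements 118 and 100 bases before the start and a G-box at 241 bases. COR15B has 1 at 87 bases, with a G-box at 71 bases, and FKF1 has evening elements at 223 and 37 bases. LHY and RVE8 have a G-box at 111 and at 156 bases and no evening element in this window. A match describes the letters only.

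Differences between the times were widespread. Of 17704 genes with enough signal, 6126 (34.6%) rose and 2556 (14.4%) fell from ZT9 to ZT21, where a call means a Benjamini-Hochberg adjusted p under 0.05 from limma on log2(FPKM + 1). FPKM are fragments per kilobase of transcript and per 1e6 fragments, and fold changes below are differences of that log2 scale, which understates the change of low genes. A difference of at least 2-fold (a log2 change of 1) was reached by 1348 genes that rose (7.61%) and 699 that fell (3.95%), and after the rescaling described next by 978 (5.52%) and 899 (5.08%). The deposited values were scaled to the library total, and the median change of all genes was 0.14. After each library was rescaled by the median ratio of its genes the median change was −0.01, and 4327 genes rose (24.4%) and 4017 fell (22.7%). The larger number of rises as deposited therefore depends on the scaling. Counts after rescaling are given below for the gene lists in which they differ. Each list count is best read beside these shares of all genes. In bulk leaf samples, fewer cells of a type and less RNA per cell cannot be told apart.

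The genes that differed at least 2-fold did not simply peak at the 2 times compared. Of the 1348 that rose, 41.1% had their highest young mean at ZT21, 28.0% at ZT1 and 23.7% at ZT17, and 52.0% had their lowest mean at ZT9. Over all genes tested the same shares were 15.3%, 13.5% and 26.3% for the highest mean and 14.3% for the lowest. Of the 699 that fell, 59.1% were highest at ZT9 and 23.0% at ZT5, while 53.5% reached their lowest mean at ZT1 rather than at ZT21 (15.7%). Of all genes tested, 8.9% were highest at ZT9 and 7.62% at ZT5, and 39.2% had their lowest mean at ZT1 and 4.2% at ZT21. Both sets were chosen by the difference between ZT9 and ZT21, which in part fixes their shares at these 2 times. Among all genes tested, ZT13 was the commonest time of the highest mean (28.5%). These times were read from FPKM as deposited, without rescaling. The median-ratio factors were 0.850 to 0.863 in the young libraries of ZT1 and 1.11 to 1.16 in those of ZT13. A typical gene therefore reads lower at ZT1 and higher at ZT13, and the shares depend on the scaling. They were not recomputed after rescaling.

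The 12 largest rises in log2 change included 4 MYB-like factors of the clock family, RVE2, LHY, RVE1 and RVE8. RVE2 (chromosome 5, 14751344 to 14753088, minus strand) stood at 4.76, 7.81 and 5.22 FPKM in the 3 libraries of ZT9 and at 655, 709 and 743 FPKM in those of ZT21, a log2 change of 6.69 ± 0.19 (SE). LHY (chromosome 1, 33379 to 37871, minus strand) went from 1.04, 1.24 and 1.12 FPKM to 201, 160.2 and 168 FPKM, a log2 change of 6.37 ± 0.12 (adjusted p = 4.06e-16, limma with Benjamini-Hochberg adjustment). RVE1, a relative known for linking the clock to auxin production, rose from between 0.575 and 1.52 FPKM to between 81.2 and 106 FPKM. In each of these genes every night library exceeded every midday library by a wide margin. By any margin, this held for 37.8% of all genes tested.

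BT2, a BTB and TAZ domain protein with a known role in nutrient and sugar responses, rose from 6.76, 8.44 and 6.33 FPKM to 256, 308 and 278 FPKM (log2 change 5.11 ± 0.21). BAM9, a catalytically inactive β-amylase, rose from 4.08, 3.40 and 3.58 FPKM to 189, 132 and 133 FPKM (5.00 ± 0.19). CHS, chalcone synthase at the entry to flavonoids, rose from 1.38, 0.504 and 1.63 FPKM to 49.0, 72.5 and 54.4 FPKM (4.80 ± 0.25). CHS overlaps AT5G13940 on the opposite strand, and the sources used here do not state whether counting used strand, so reads of the 2 loci may be mixed. The RING-H2 finger gene AT1G49200 (4.72), the glutaredoxin family gene AT1G64500 (4.68) and AT3G19030, annotated as an unknown protein (4.68), rose to a similar extent.

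Among the top rises were also loci that varied strongly between libraries. AT5G66053, a short locus annotated as an unknown protein, was at 0, 42.2 and 0 FPKM at ZT9 and at 333, 441 and 396 FPKM at ZT21 (log2 change 6.79 ± 1.54), and it overlaps AT5G66052 on the opposite strand. AT1G31258, annotated as other RNA, was listed at 0 in all 3 libraries of ZT9 and at 146, 453 and 0 FPKM at ZT21. Its 2 groups overlap at 0, and its call was lost on leaving out any library of ZT9 (adjusted p of 0.053 to 0.057).

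The largest falls joined light-signalling, clock, cold-response and antenna genes. PIF4, a bHLH factor that promotes elongation growth and is held in check by phytochromes (chromosome 2, 17886427 to 17889050, plus strand), stood at 127, 122 and 108 FPKM at ZT9 and at 0.457, 0.367 and 0.562 FPKM at ZT21, a log2 change of −6.36 ± 0.23. GI, a clock protein that also works in the flowering pathway (chromosome 1, 8061844 to 8067716), was at 67.3, 71.3 and 62.1 FPKM at ZT9 and listed at 0 in all 3 libraries of ZT21. AT3G55240, of unknown function, was at 82.2, 84.0 and 81.7 FPKM at ZT9 and likewise listed at 0 at ZT21. Midday and night libraries of these genes were fully separated, with midday higher, as they were in 16.7% of all genes tested.

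Behind them came the protein kinase CIPK20 (58.7, 47.9 and 45.2 FPKM against 0.152, 0 and 0 FPKM) and the nudix hydrolase NUDT8 (log2 change −5.24). The pseudogene AT1G69140 stood at 496, 329 and 250 FPKM at ZT9 and at 2.99, 8.83 and 6.46 FPKM at ZT21 (−5.70). RD29A, GOLS3, COR15B, PRR7, FKF1 and LHCB2.2, which belong to the gene groups described below, complete the list of the 12 largest falls.

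Nearly all clock genes differed between the times. Of 13 genes of the morning loop, 6 rose and 7 fell, and of 13 genes of the day and evening loop, 3 rose and 9 fell, so 25 of the 26 were called, with ELF3 the exception. The medians were −0.41 and −2.50, against 0.14 for all genes. The 6 rises of the morning loop were those of CCA1, LHY, RVE1, RVE2, RVE4 and RVE8. CCA1 went from 3.19, 3.28 and 2.68 FPKM to 56.2, 38.6 and 41.6 FPKM (log2 change 3.51 ± 0.14). RVE8 went from 0.946, 1.402 and 0.767 FPKM to 58.9, 62.4 and 66.8 FPKM (4.98 ± 0.15), and its relative RVE4 from 29.2, 37.1 and 30.1 FPKM to 209, 231 and 249 FPKM (2.80 ± 0.12). All night libraries of CCA1, LHY, RVE1, RVE2, RVE4 and RVE8 lay above all midday libraries, as they did in 37.8% of all genes tested.

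**Figure D1:**
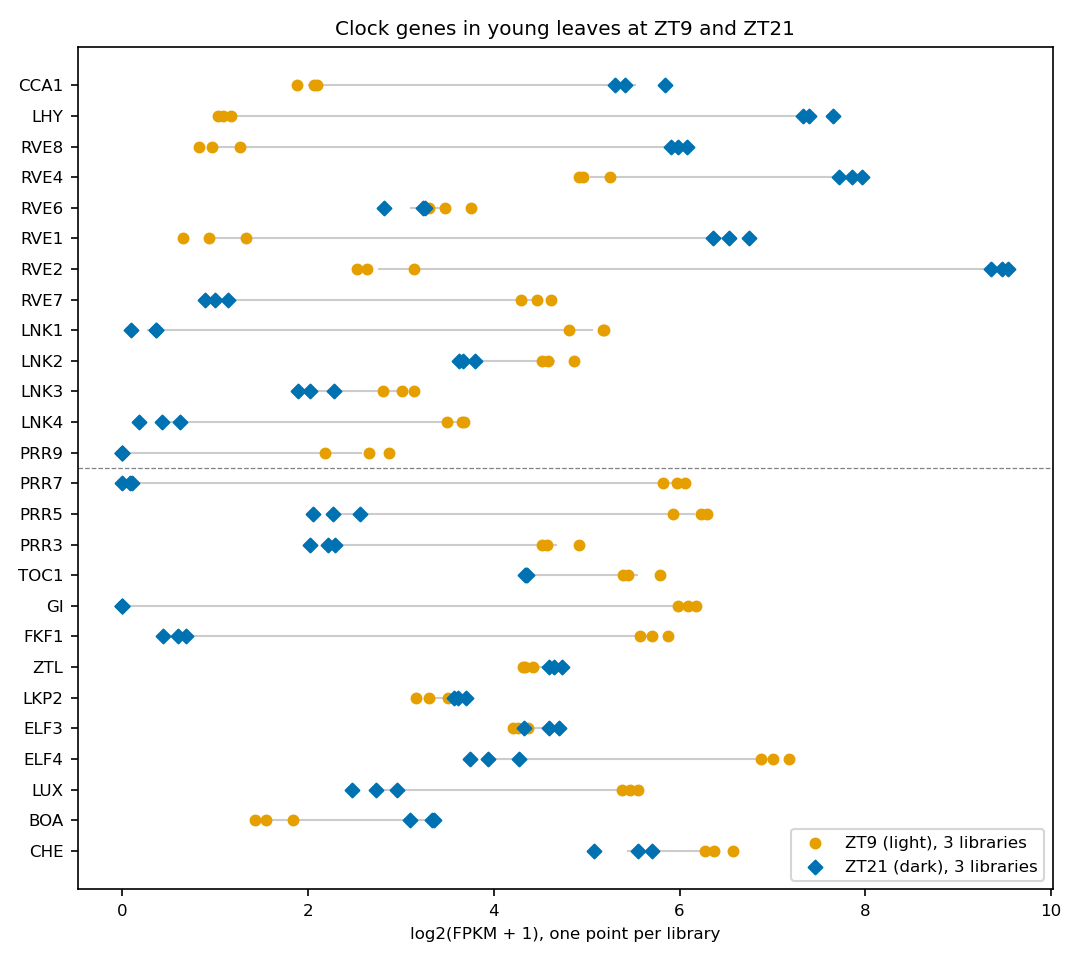
Level of 26 clock genes on a log2(FPKM + 1) axis, with 1 point for each library of young leaves at ZT9 (circles) and ZT21 (diamonds). Grey lines join the group means and the dashed line separates morning genes (above) from day and evening genes (below). LHY, RVE1, RVE2 and RVE8 lie far to the right at ZT21, GI and PRR7 at or near 0.

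The other 7 members of the morning loop fell. RVE7 fell from 23.4, 21.1 and 18.6 FPKM to 0.858, 0.990 and 1.19 FPKM (−3.45 ± 0.13). LNK1, a co-activator that works with RVE8, fell from 35.0, 35.4 and 27.0 FPKM to 0.282, 0.289 and 0.0636 FPKM (−4.78 ± 0.13). LNK4 fell by 3.21, LNK2 by 0.96 and LNK3 by 0.92 on the log2 scale, so the 4 LNK genes all fell but to different extents. PRR9, the earliest of the pseudo-response regulators, was low at midday, at 5.28, 6.31 and 3.53 FPKM, and listed at 0 in every night library. RVE6 differed little, with 10.14, 12.5 and 8.88 FPKM at ZT9 and 8.57, 6.03 and 8.41 FPKM at ZT21. Its change of −0.41 ± 0.14 was not called without the second library of ZT9 (−0.29, adjusted p = 0.122) or of ZT21 (−0.27, adjusted p = 0.135).

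The pseudo-response regulators PRR7, PRR5, PRR3 and TOC1 fell by successively smaller amounts. PRR9 (above), low at midday and at 0 at night, is left out of this order. PRR7 dropped from 65.8, 61.8 and 55.4 FPKM to 0.0750, 0 and 0.0548 FPKM (−5.89 ± 0.11), PRR5 from 74.1, 77.6 and 60.0 FPKM to 3.14, 4.89 and 3.83 FPKM (−3.86 ± 0.14), and PRR3 from 22.8, 29.3 and 21.9 FPKM to 3.05, 3.64 and 3.87 FPKM (−2.50 ± 0.12). TOC1, the latest of the series, was at 42.7, 54.2 and 41.0 FPKM at midday and still at 19.2, 19.5 and 19.4 FPKM at night (−1.20 ± 0.11). FKF1, a blue-light receptor of an E3 ligase that acts with GI, fell from 46.8, 57.5 and 51.2 FPKM to 0.611, 0.354 and 0.510 FPKM (−5.15 ± 0.21). Its relatives ZTL and LKP2 did the reverse by a small margin, with log2 changes of 0.30 ± 0.10 and 0.31 ± 0.11.

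Neither ZTL nor LKP2 was called after rescaling (0.13 and 0.14), which leaves 1 rise, that of BOA, in the day and evening list. The ZTL call was also lost without the first library of ZT9 (adjusted p = 0.051) or of ZT21 (0.0546), and the LKP2 call without the first (0.0624) or the third (0.116) library of ZT9 or the first of ZT21 (0.077).

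Of the 3 subunits of the evening complex, 2 fell and 1 was not called. ELF4 fell from 116, 144 and 127 FPKM to 14.3, 12.4 and 18.3 FPKM (−3.04 ± 0.14), and LUX, the DNA-binding subunit, from 40.5, 46.0 and 43.3 FPKM to 4.56, 6.74 and 5.65 FPKM (−2.75 ± 0.21). ELF3 was at 17.4, 19.7 and 18.17 FPKM at ZT9 and at 19.0, 24.9 and 23.1 FPKM at ZT21, a change of 0.26 ± 0.11 that was not called. BOA, the paralog of LUX, rose from 1.69, 2.57 and 1.92 FPKM to 7.55, 9.06 and 9.25 FPKM (1.66 ± 0.14). BOA and LUX thus moved in opposite directions, at different levels. CHE, a TCP factor known to repress CCA1, fell from between 76.2 and 94.0 FPKM to between 32.9 and 50.9 FPKM (−0.96 ± 0.23).

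Clock output genes were divided likewise, with 6 rises and 5 falls among 12. GRP7, an RNA-binding protein that forms a slave oscillator, fell from 2232, 2333 and 2239 FPKM to 137, 167 and 163 FPKM (−3.86 ± 0.12), and GRP8 from between 498 and 629 FPKM to between 71.6 and 74.0 FPKM. COR27 and COR28, regulators known from cold and blue-light responses, fell by 2.13 and 2.203 on the log2 scale. In COR27 the midday libraries stood at 35.8, 49.3 and 39.8 FPKM and the night libraries at 6.30, 9.77 and 10.5 FPKM.

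Genes of the photoperiodic flowering pathway moved in both directions. The CONSTANS relatives COL1 and COL2 rose, COL1 from 4.37, 5.23 and 3.85 FPKM to 124, 78.4 and 96.9 FPKM (4.18 ± 0.17) and COL2 by 3.90 ± 0.16. CO itself, which activates FT, rose from 0.513, 0.555 and 1.06 FPKM to 2.78, 2.92 and 3.45 FPKM. FT, the mobile flowering signal, rose from 0.662, 0.833 and 0.342 FPKM to 9.42, 6.81 and 11.6 FPKM (2.66 ± 0.26). Of the DOF factors that repress CO, CDF3 fell (−2.94 ± 0.11) while CDF2 (1.95 ± 0.18) and CDF1 (0.72 ± 0.19) rose, and CDF5 was not called (0.05).

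The 6 young time points place these differences in the daily course. LHY had a mean of 525 FPKM at ZT1, so its ZT21 level (mean 176 FPKM) lay on a rising flank, and BAM9 likewise reached 616 FPKM at ZT1 against 151 FPKM at ZT21. FKF1 was highest at ZT9 itself (51.8 FPKM), COR15B at ZT13 (1184 FPKM), and LHCB2.2 at ZT5 (5973 FPKM). RCA changed little from ZT21 (8911 FPKM) to ZT1 (9131 FPKM), with its lowest mean at ZT9 (3074 FPKM). BT2 was highest at ZT17 (417 FPKM), and fell to 0.541 FPKM at ZT1. NIA2 was highest at ZT21 (1408 FPKM) and lowest at ZT9 (66.8 FPKM), so for it the comparison spans the whole daily range of the means.

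**Figure D2:**
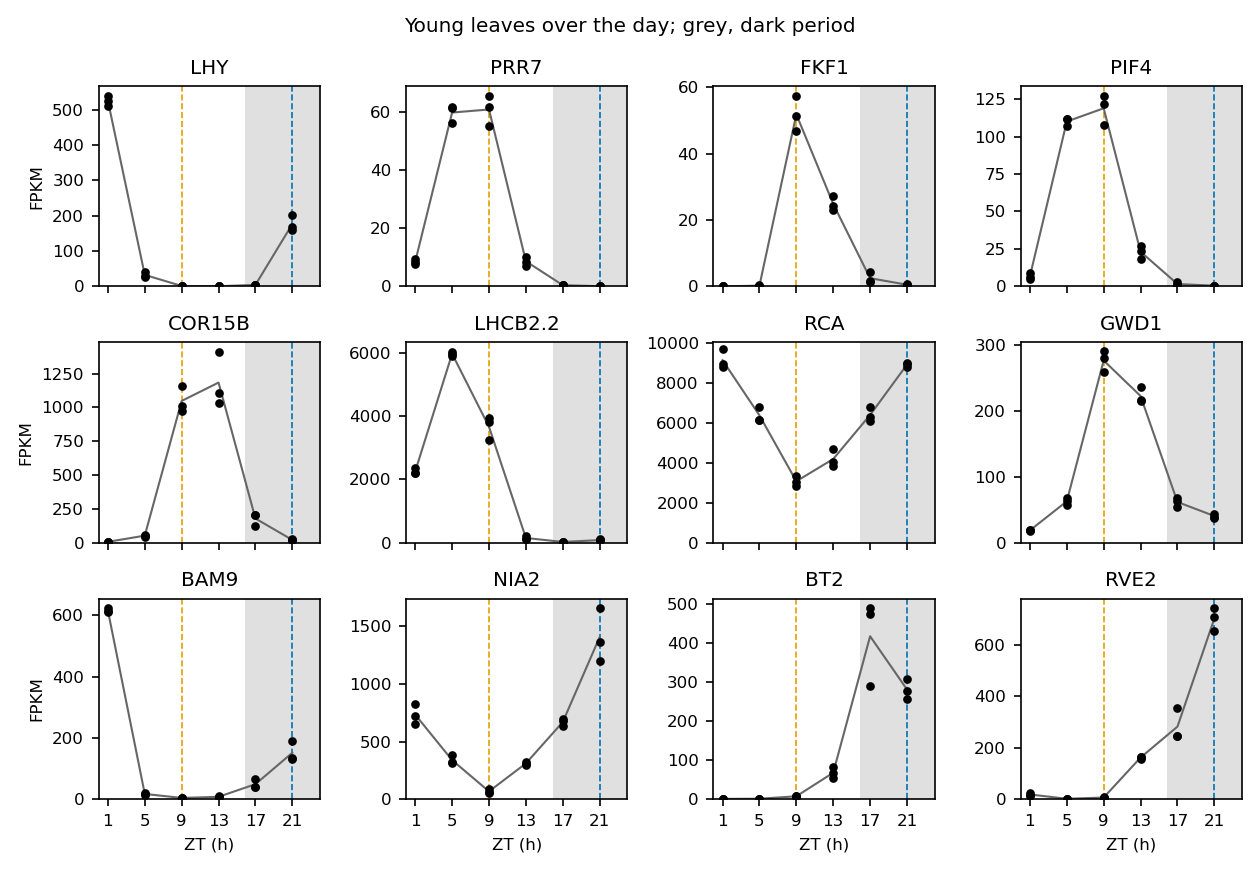
FPKM of 12 genes in young leaves against ZT in hours, with 1 point for each of the 3 libraries at each of 6 times and a line through the means. Grey shading is the dark period and dashed lines mark ZT9 and ZT21. Each panel has its own FPKM axis starting at 0. NIA2 runs from its lowest to its highest mean between the dashed lines, whereas LHY and BAM9 continue to rise to ZT1.

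Transcripts of the photoreceptors differed less than those of several factors downstream. Of 20 tested genes of light perception and signalling, 6 rose and 9 fell, or 4 and 9 after rescaling. For all genes tested the shares were 34.6% and 14.4%, or 24.4% and 22.7% after rescaling. PHYB, the main red-light receptor of green leaves, was at 19.0, 17.9 and 16.4 FPKM at ZT9 and 20.7, 18.6 and 15.8 FPKM at ZT21 and was not called (0.04 ± 0.13). Nor were the cryptochrome CRY1 (0.13) and the phototropin PHOT2 (0.19), while PHYA fell by 0.50 and PHOT1 by 0.69 on the log2 scale. Among the PIF factors, PIF5 fell from 68.1, 69.7 and 61.8 FPKM to 12.1, 12.5 and 12.9 FPKM (−2.32 ± 0.13), PIF7 by 1.17 and PIF1 by 0.49. PIF3 was not called (−0.06). So the fall of PIF4 and PIF5 was not shared to that extent by the other PIF genes measured.

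Both bZIP factors of light responses were higher in the dark. HYH went from 2.93, 2.35 and 0.877 FPKM to 45.3, 44.1 and 48.5 FPKM (4.01 ± 0.21) and its partner HY5 from 1.35, 1.08 and 1.18 FPKM to 10.6, 12.2 and 16.3 FPKM (2.65 ± 0.22). The B-box gene BBX24 fell from 240, 232 and 215 FPKM to 27.4, 15.8 and 20.3 FPKM (−3.41 ± 0.13), whereas its relative BBX25 rose (1.99 ± 0.15).

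Light-harvesting antenna genes, which encode the chlorophyll-binding proteins around both photosystems, fell almost throughout. Of 21, 17 fell and 4 rose (3 after rescaling), with a median of −2.41. Their summed share of all FPKM went from 14.4% ± 1.87 (SD, n = 3) to 3.46% ± 0.58 (SD, n = 3). LHCB2.2 dropped from 3810, 3239 and 3943 FPKM to 72.1, 73.8 and 103 FPKM (−5.46 ± 0.24), and LHCA1, of photosystem I, from 6848, 5955 and 8024 FPKM to 538, 666 and 760 FPKM (−3.41 ± 0.12). The level of LHCB1.3 was the highest of the antenna genes at both times, with 27100, 26860 and 31780 FPKM at ZT9 and 9537, 13260 and 14970 FPKM at ZT21 (−1.20 ± 0.21). LHCB1.1, LHCB1.2 and LHCB1.3 are near-identical copies, so how reads were split between them is uncertain. LHCB1.5 (−4.14 ± 0.24) overlaps AT2G34410 on the opposite strand.

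The exceptions were minor antenna members. LHCB4.3, an isoform of CP29, rose from 25.1, 27.8 and 39.9 FPKM to 208, 242 and 227 FPKM (2.85 ± 0.13), while its paralogs LHCB4.1 and LHCB4.2 fell by 1.03 and 1.68 on the log2 scale. LHCB7 (0.91 ± 0.13) and LHCA5 (0.59 ± 0.08) rose as well. The rise of LHCA6 (0.31) was lost after rescaling (0.13) and without the second library of ZT9 (0.18, adjusted p = 0.0994) or of ZT21 (0.28, adjusted p = 0.0524).

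Nuclear genes of the photosystems and electron transport fell more mildly. Of 25, 18 fell and 1 (PETC, of the cytochrome b6f complex) rose, and the rise of PETC was not called after rescaling. Leaving out the third library of ZT9 or the first of ZT21 gave 2 rises. The median was −0.86, and the summed share went from 12.1% ± 0.38 to 7.28% ± 0.61 of all FPKM (SD, n = 3). The photosystem I subunit PSAF fell from 9153, 9107 and 9349 FPKM to 2724, 2698 and 3248 FPKM (−1.68 ± 0.14), PSAD2 by 1.86, PSAO by 1.59 and PSAD1 by 1.51. PSBS, needed for heat dissipation of excess light, was at 1728, 1429 and 1601 FPKM against 1741, 1844 and 1675 FPKM and was not called (0.15 ± 0.09). The plastocyanin genes PETE1 (0.25) and PETE2 (0.16) were not called either.

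All 19 tested genes of the Calvin cycle, which fixes CO2 with the products of the light reactions, rose as deposited (median 0.76), and 15 did after rescaling. The 4 not called after rescaling were GAPA2 (0.37), CFBP1 (0.33), TKL1 (0.22) and CP12-1 (0.20). Leaving out single libraries gave 17 to 19 calls. The GAPA2 call was lost without the second library of ZT9 (adjusted p = 0.0767) or of ZT21 (0.0597), and the CP12-1 call without the third of ZT9 (0.0985) or of ZT21 (0.0847). The TKL1 call was lost without the second (0.0594) or the third (0.0904) library of ZT9 or the first (0.0508) or second (0.139) of ZT21. Together the Calvin cycle genes went from 4.82% ± 0.27 to 9.65% ± 0.46 of all FPKM (SD, n = 3). RCA, Rubisco activase (chromosome 2, 16570746 to 16573548, minus strand), went from 3061, 2843 and 3318 FPKM to 8998, 8950 and 8784 FPKM (1.54 ± 0.09). The aldolases FBA1 (1.87 ± 0.10) and FBA2 (1.15 ± 0.08), the dehydrogenase subunits GAPA1 and GAPB (1.39 each) and SBPASE (1.26 ± 0.09) rose in all night libraries. Such upward separation of the libraries held for 37.8% of all genes tested.

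Rubisco small subunit genes rose too, RBCS1A from 16590, 14270 and 16440 FPKM to 25450, 27590 and 26670 FPKM (0.76 ± 0.10), RBCS1B by 1.58, RBCS2B by 1.23 and RBCS3B by 0.70. RBCS1B, RBCS2B and RBCS3B are near-identical copies and their split is uncertain. CA1, a chloroplast carbonic anhydrase, rose from 2698, 2104 and 2256 FPKM to 5958, 7259 and 6174 FPKM (1.46 ± 0.13). It was not called with the spread of all 36 libraries (adjusted p = 0.101).

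**Figure D3:**
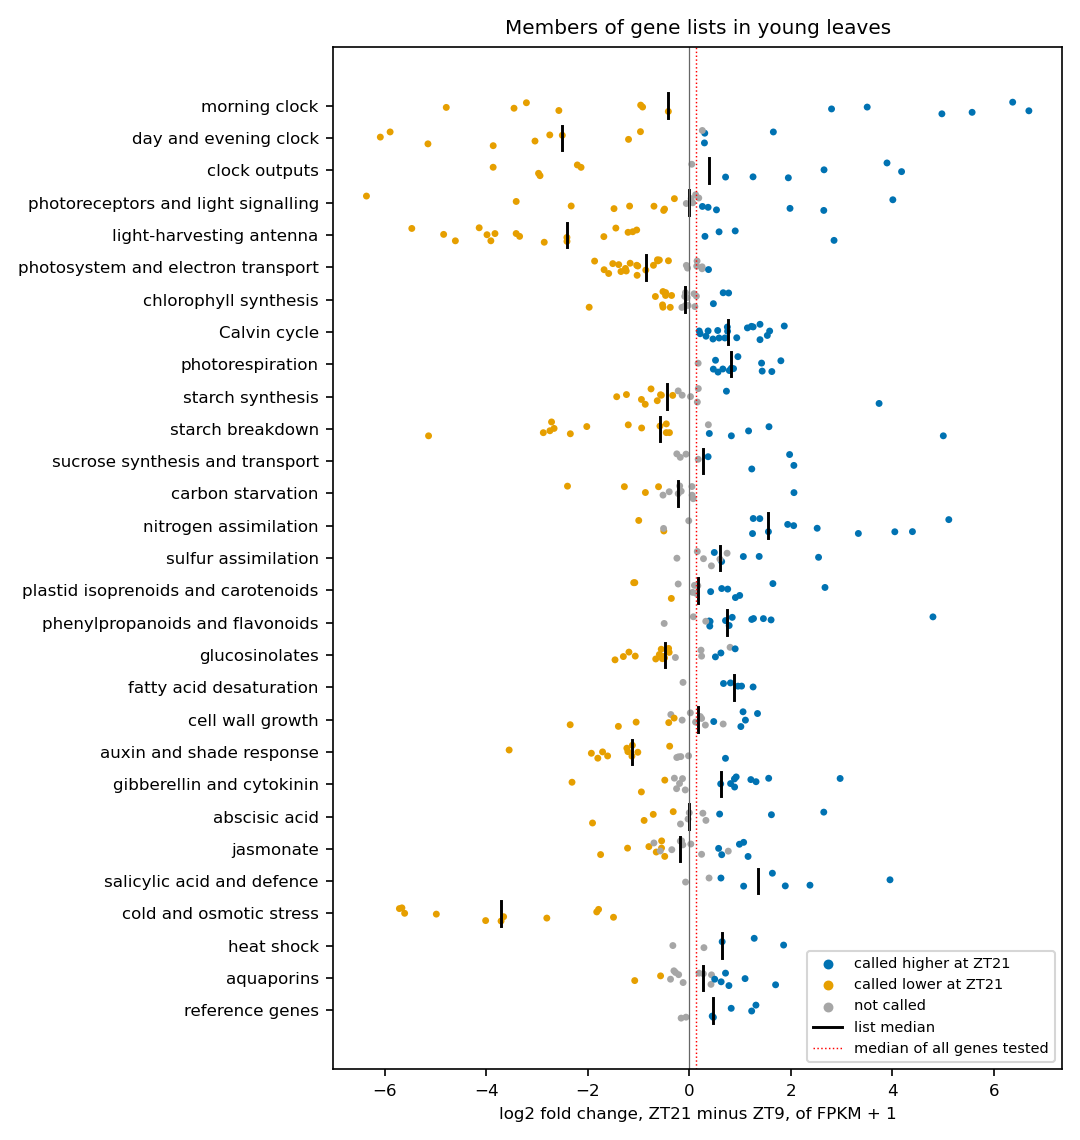
Log2 fold change from ZT9 to ZT21 in young leaves of every tested member of the gene lists named on the vertical axis. Each gene is 1 point, coloured by call (blue higher, orange lower, grey not called). Black bars are list medians and the dotted line is the median of all genes tested, 0.14. Antenna and cold genes lie to the left, and Calvin cycle, photorespiration and nitrogen genes mostly to the right.

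Photorespiration, the salvage of the product of Rubisco's reaction with oxygen, followed the Calvin cycle. Of 13 genes, 12 rose and none fell by the limma test, as deposited and after rescaling (median 0.83), with 0 lower at an unadjusted p under 0.05. Their summed share went from 0.848% to 1.75% of all FPKM. The aminotransferase GGT1 went from 754, 783 and 755 FPKM to 2684, 2651 and 2679 FPKM (1.81 ± 0.06) and the glycolate oxidase GOX1 from 780, 800 and 847 FPKM to 2481, 2469 and 2547 FPKM (1.63 ± 0.08). Subunits of the glycine decarboxylase also rose, GLDP2 by 1.44 and GDCH by 1.43. AGT1, another aminotransferase, was not called (0.18).

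Chlorophyll synthesis genes were mixed, with 3 rises and 9 falls among 21 (median −0.09, 12 falls after rescaling). Rises made up 34.6% and falls 14.4% of all genes tested, with 22.7% falls after rescaling. PORB, the light-dependent protochlorophyllide reductase, fell from 1581, 1271 and 1586 FPKM to 251, 461 and 456 FPKM (−1.97 ± 0.24). HEMC fell by 0.67 and PORC by 0.52, while HEMA1, of the first committed step, rose (0.78 ± 0.12) and so did GUN4 (0.67 ± 0.17), which stimulates Mg-chelatase. CHLG, the last enzyme, rose by 0.48, and the Mg-chelatase subunit CHLH was not called (−0.09).

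Starch is built in the chloroplast by day and degraded at night. At ZT21 the transcripts for breakdown were mostly lower than at midday. Of 19 genes of starch breakdown, 13 fell and 5 rose (4 after rescaling), with a median of −0.58. AMY3, a plastid α-amylase (chromosome 1, 26288278 to 26293053, minus strand), fell from 151, 141 and 136 FPKM to 2.97, 4.08 and 2.40 FPKM (−5.13 ± 0.12). GWD1, the glucan, water dikinase that phosphorylates starch at the start of its breakdown, fell from 290.3, 280.2 and 259 FPKM to 39.3, 44.3 and 37.8 FPKM (−2.74 ± 0.09). The second dikinase PWD fell less (−0.94), as did the glucan phosphatases SEX4 (−1.20), LSF1 (−0.58) and LSF2 (−0.45).

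Debranching and glucan-processing genes fell as well. ISA3 went from 83.1, 82.7 and 79.6 FPKM to 8.97, 12.9 and 9.44 FPKM (−2.87 ± 0.12), and LDA fell by 0.45. The phosphorylases PHS2 (−2.71 ± 0.09) and PHS1 (−2.66 ± 0.12), the disproportionating enzymes DPE1 (−2.34 ± 0.14) and DPE2 (−2.02 ± 0.10) and the maltose exporter MEX1 (−0.39 ± 0.08) completed the 13 falls.

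Most β-amylase genes of the list went the opposite way. BAM3, the main active plastid β-amylase, rose from 202, 269 and 193 FPKM to 746, 610 and 610 FPKM (1.57 ± 0.13). BAM2 rose by 1.17, BAM1 by 0.83 and the regulatory BAM4 by 0.40, the last not called after rescaling (0.23). BAM5 was low, between 0 and 1.54 FPKM, and not called (0.38). With BAM9 (above), the 5 rises in starch breakdown were all β-amylase family genes.

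Starch synthesis showed 2 rises and 9 falls among 16 genes (11 after rescaling, median −0.44). GBSS1, the synthase that makes amylose, rose from 2.40, 3.26 and 2.31 FPKM to 53.6, 39.3 and 51.0 FPKM (3.74 ± 0.19), and SS2 rose by 0.73. The branching enzyme SBE2.1 fell from 95.0, 90.12 and 84.9 FPKM to 29.5, 36.3 and 32.9 FPKM (−1.43 ± 0.09), and SS1 by 1.24, ISA2 by 0.94, SS4 by 0.87, APL2 by 0.75, SBE2.2 by 0.57, PGM1 by 0.55 and ISA1 by 0.33. APL4 fell by 0.63 but was not called without the first (adjusted p = 0.0503) or the third (0.106) library of ZT9 or the first of ZT21 (0.161). The remaining members APL1 (−0.14), APL3 (−0.22), APS1 (0.03), SS3 (0.16) and PGI1 (0.18) were not called.

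Sucrose handling showed 4 rises and no fall by the limma test among 8 tested genes (1 lower at an unadjusted p under 0.05). After rescaling there were 3 rises and 2 falls, and without the first library of ZT9 there was 1 fall. All genes tested gave 34.6% rises and 14.4% falls, and 24.4% and 22.7% after rescaling. SWEET12 and SWEET11, exporters that load sucrose towards the phloem, rose from 35.1, 63.5 and 41.2 FPKM to 194, 199 and 183 FPKM (2.06 ± 0.19) and by 1.23 ± 0.11. The sucrose phosphate synthase SPS4F rose from between 23.2 and 29.8 FPKM to between 105 and 120 FPKM (1.98 ± 0.14). SUC2, the phloem-loading carrier, was at 237, 275 and 262 FPKM against 239, 253 and 247 FPKM and was not called as deposited.

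Genes known to rise when sugar runs out were mostly level or lower. Of 13 tested carbon starvation genes, 4 fell and 1 rose (6 fell after rescaling). Falls made up 14.4% and rises 34.6% of all genes tested, with 22.7% falls after rescaling. DIN1 was at 14.6, 50.1 and 34.9 FPKM at midday and 1.42, 5.70 and 11.1 FPKM at night (−2.40 ± 0.52), and TPS11, of the trehalose phosphate synthase family, fell by 1.28. ASN1, dark-inducible asparagine synthetase, was under 2.1 FPKM in all 6 libraries and fell by 0.86. TPS9 was the single rise (2.06 ± 0.16), and the energy sensor kinases KIN10 (−0.19) and KIN11 (0.08) were not called.

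Nitrate assimilation genes were high at ZT21. Of 15 genes, 11 rose and 2 fell (3 after rescaling), with a median of 1.56. Nitrate reductase, the first step, is encoded by NIA1 and NIA2. NIA2 (chromosome 1, 14158527 to 14161938, plus strand) went from 59.0, 87.7 and 53.8 FPKM to 1660, 1362 and 1201 FPKM (4.40 ± 0.15), and NIA1 from 4.63, 5.15 and 2.95 FPKM to 127, 86.3 and 54.6 FPKM (4.05 ± 0.27). The ratio of means was 21.1 for NIA2 and 21.0 for NIA1, at different levels. Nitrite reductase NIR1 rose from 107, 106 and 87.4 FPKM to 455, 409 and 392 FPKM (2.06 ± 0.11). UPM1, which makes the siroheme cofactor of nitrite reductase, rose by 3.33 ± 0.13.

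Genes that place the reduced nitrogen into amino acids moved in both directions. The plastid glutamine synthetase GLN2 went from 932, 875 and 956 FPKM to 2191, 2324 and 2109 FPKM (1.26 ± 0.08), the glutamate synthase GLU1 rose by 1.56 and the asparagine synthetase ASN2 by 2.52. Among the cytosolic glutamine synthetases GLN1;2 rose (1.25 ± 0.10), GLN1;1 (−0.99 ± 0.21) and GLN1;3 (−0.50 ± 0.12) fell, and GLN1;4 was not called as deposited (−0.51). The NADH-dependent GLT1 was not called (−0.01). The nitrate transporter and sensor NRT1.1 rose from 37.8, 41.8 and 39.4 FPKM to 96.3, 113 and 108 FPKM (1.39 ± 0.18), and BT1, a relative of BT2, by 1.94 ± 0.13. As a sum, the list went from 0.205% ± 0.0075 to 0.739% ± 0.0505 of all FPKM (SD, n = 3).

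Sulfate assimilation showed 5 rises among 11 genes (1 fall after rescaling). The shares of rises among all genes were 34.6% as deposited and 24.4% after rescaling, with 22.7% falls after rescaling. The reductase APR2 rose from 79.7, 62.7 and 64.2 FPKM to 457, 381 and 380.3 FPKM (2.55 ± 0.22), whereas its paralogs APR1 (0.28) and APR3 (0.75) were not called. Sulfite reductase SIR rose by 0.64 and SDI1, known from sulfur deficiency, by 1.38.

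Plastid isoprenoid and carotenoid genes showed 7 rises and 3 falls among 15 (4 falls after rescaling). Over all genes tested 34.6% rose and 14.4% fell, and 24.4% and 22.7% did after rescaling. The β-ring hydroxylase BCH1 rose from 13.6, 11.5 and 11.6 FPKM to 70.7, 93.0 and 87.1 FPKM (2.67 ± 0.13) and BCH2 by 1.65. PSY, phytoene synthase at the entry to carotenoids, rose by 0.99. The xanthophyll cycle enzymes VDE (−1.07 ± 0.09) and ZEP (−0.35 ± 0.09) fell, as did the carotenoid cleavage gene CCD4 (−1.09 ± 0.30).

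Of 14 tested phenylpropanoid and flavonoid genes, 11 rose as deposited and 7 after rescaling. Beside CHS, CHI rose from 7.58, 7.89 and 7.76 FPKM to 18.6, 18.6 and 23.2 FPKM (1.27 ± 0.12), MYB111, a flavonol regulator, by 1.61 and 4CL3 by 1.46. In the fit of all 36 libraries, which holds the more variable old leaves, 6 of the list were called. The anthocyanin genes DFR and LDOX were under 1 FPKM in all 6 libraries.

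Glucosinolates are the defence compounds of the cabbage family. Their genes showed 12 falls and 3 rises among 19 (13 falls after rescaling, median −0.49). CYP79F1, which starts the aliphatic core, fell from 353, 394 and 299 FPKM to 199.9, 88.0 and 112 FPKM (−1.46 ± 0.31). MYB76 fell by 1.297, BCAT4 by 1.19 and MAM1 by 1.06. CYP79B3, of the indole branch, rose (0.91 ± 0.16), and MYB28, a regulator of the aliphatic branch, rose by 0.52.

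Fatty acid desaturase genes showed 5 rises among 6, with 1 fall (FAD2) added after rescaling. FAD7 rose from 198, 185 and 169 FPKM to 421, 480.2 and 422 FPKM (1.26 ± 0.09), FAD3 by 1.03, SSI2 by 0.96 and FAD8 by 0.81.

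Auxin and shade response genes mostly fell, 11 of 16 against 1 rise (13 falls after rescaling, median −1.12). IAA29, an early auxin gene that PIF factors are known to activate, fell from 25.1, 23.5 and 24.0 FPKM to 1.27, 0.911 and 1.31 FPKM (−3.55 ± 0.14). IAA19 fell from 9.58, 8.00 and 9.63 FPKM to 1.195, 1.83 and 1.97 FPKM (−1.93 ± 0.21), IAA3 by 1.80 and IAA5 by 1.71. YUC8, of auxin synthesis, fell by 1.13, and the auxin exporter PIN3 rose (0.71 ± 0.09) while its relative PIN7 fell (−1.21 ± 0.13).

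Cell wall growth genes had 5 rises and 5 falls among 18 (4 rises and 5 falls after rescaling). The rescaled shares were close to those of all genes tested (24.4% and 22.7%). The expansins EXPA11 (−2.34 ± 0.12) and EXPA8 (−1.40 ± 0.15) fell, whereas EXPA1 (1.11 ± 0.26) and the xyloglucan endotransglucosylase XTH6 (1.35 ± 0.26) rose. In EXPA11 the midday libraries were at 114, 96.7 and 94.8 FPKM and the night libraries at 19.8, 20.0 and 17.9 FPKM.

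Gibberellin and cytokinin genes showed 9 rises and 3 falls among 17 tested (5 falls after rescaling). Over all genes tested 34.6% rose and 14.4% fell, and 24.4% and 22.7% did after rescaling. The cytokinin response regulator ARR16 rose from 12.6, 11.8 and 10.5 FPKM to 73.9, 105 and 121 FPKM (2.97 ± 0.19), and ARR8 by 1.57. GA20OX1, of gibberellin synthesis, fell from 5.17, 3.99 and 5.83 FPKM to 0.465, 0.0978 and 0.0763 FPKM (−2.31 ± 0.20), and the receptor gene GID1B rose by 1.32.

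Abscisic acid genes were called in both directions, 3 rises and 4 falls among 12 tested (5 falls after rescaling). Of all genes tested, 34.6% rose and 14.4% fell as deposited, and 24.4% and 22.7% after rescaling. HAB1, a phosphatase that blocks abscisic acid signalling, rose from 3.87, 4.87 and 3.60 FPKM to 37.8, 27.7 and 28.2 FPKM (2.65 ± 0.13). The synthesis gene NCED3 fell (−1.90 ± 0.19) and the degradation gene CYP707A3 rose (1.62 ± 0.17). HAI2 fell by 0.89 on the log2 scale.

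Of 21 tested jasmonate genes, 5 rose and 7 fell (4 and 9 after rescaling), and 3 rose without the first library of ZT21. For all genes tested the shares were 34.6% and 14.4%, or 24.4% and 22.7% after rescaling. AOC2, of jasmonate synthesis, fell from 547, 636 and 562 FPKM to 222, 166 and 139 FPKM (−1.75 ± 0.18) and AOC4 by 1.21. The repressor JAZ9 rose (1.16 ± 0.15) while JAZ1 fell by 0.79. The storage protein genes VSP1 and VSP2, common jasmonate markers, varied from 0.0590 to 9.47 FPKM and from 0.616 to 19.9 FPKM among the midday libraries alone and were not called.

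Salicylic acid and defence genes rose in 6 of 8 tested, and none fell as deposited by the limma test, also at an unadjusted p under 0.05 (1 after rescaling, NPR1). The spread between libraries was wide. PR1 was at 0, 7.77 and 0.232 FPKM at ZT9 and at 167, 7.56 and 27.0 FPKM at ZT21, so the groups overlap, and PR5 was at 13.5, 23.2 and 13.9 FPKM against 133, 27.8 and 68.9 FPKM. ALD1 stood at 0.0698, 0.542 and 0.240 FPKM against 14.3, 4.46 and 2.45 FPKM, and PAD4 rose by 1.07. The first night library was the highest for PR1, PR5 and ALD1. Without it the log2 changes were 2.81 for PR1 and 1.01 for PR2, the latter no longer called (adjusted p = 0.115), against 3.95 and 1.64 with it. PR2 was also not called without the first (0.0557) or the third (0.0679) library of ZT9. With the spread taken from all 36 libraries, PAD4 alone of these genes was called (adjusted p = 0.0392).

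Cold and osmotic stress genes were lower at ZT21 throughout. All 11 fell, as deposited and after rescaling, with a median of −3.71, and in each the midday libraries lay above the night libraries, as they did in 16.7% of all genes tested. CBF3, a master regulator of cold acclimation, dropped from 37.4, 37.1 and 38.0 FPKM to 0.273, 0 and 0.424 FPKM (−4.98 ± 0.14). CBF1 and CBF2, its tandem relatives, were lower at midday, between 3.79 and 8.29 FPKM, and fell by 1.49 and 1.79. The plants were grown at 22 °C throughout, so these are levels without a cold treatment.

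The other genes of the list, among them known CBF targets, were lower as well. Whether their falls depended on those of the CBF genes was not tested. COR15B, a chloroplast-protecting protein, went from 976, 1007 and 1160 FPKM to 24.6, 18.22 and 19.2 FPKM (−5.60 ± 0.18). COR15A went from 1187, 1157 and 1283 FPKM to 98.8, 70.0 and 58.7 FPKM (−4.01 ± 0.21). RD29A stood at 338, 402 and 348 FPKM against 16.3, 3.73 and 3.09 FPKM (−5.71 ± 0.40), and GOLS3, galactinol synthase of raffinose synthesis, at 48.1, 55.6 and 49.2 FPKM against 0, 0.0829 and 0 FPKM (−5.66 ± 0.16). KIN2 fell by 3.71 and KIN1 by 3.66, as near-identical neighbours whose reads may be mixed, COR47 by 2.80 and GOLS2 by 1.82. The summed share of the list fell from 0.707% ± 0.038 to 0.0490% ± 0.0139 of all FPKM (SD, n = 3).

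The heat shock list rose in 3 of 5 tested genes, from low levels, with HSP90.1 at 1.80, 3.02 and 1.71 FPKM against 13.6, 10.4 and 7.78 FPKM (1.86 ± 0.33). Aquaporin genes showed 6 rises and 2 falls among 17 (5 and 4 after rescaling), shares close to those of all genes tested (34.6% and 14.4%). The plasma membrane aquaporins PIP2;3 (1.70 ± 0.20) and PIP1;4 (1.1 ± 0.08) rose, and the vacuolar TIP1;2 fell from 1241, 1240 and 1280 FPKM to 627, 546 and 615 FPKM. Nucleolar genes of ribosome synthesis gave 3 rises and 1 fall among 6 (2 rises after rescaling, and 1 rise without the third library of ZT9), with the fibrillarin FIB1 up by 1.00. None of 5 tested cell proliferation genes was called by limma as deposited (1 higher and 1 lower at an unadjusted p under 0.05), and 2 fell after rescaling (CDKB2;1 and PCNA1). Their FPKM were under 7 except for TSO2.

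Commonly used reference genes were not level between the 2 times. Of 7, 5 rose as deposited, and 4 rose and 1 fell after rescaling. ACT2 went from 244, 282 and 253 FPKM to 631, 659.5 and 648 FPKM (1.31 ± 0.08), GAPC2 from 567, 596 and 549 FPKM to 1436, 1254 and 1333 FPKM (1.23 ± 0.09), and ACT8 rose by 0.83. UBC21 differed least, with 39.4, 41.5 and 41.7 FPKM against 35.8, 42.3 and 39.3 FPKM (−0.06 ± 0.11).

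Markers of leaf cell types were examined beside the other lists, against 34.6% rises and 14.4% falls of all genes tested (24.4% and 22.7% after rescaling). The sum of 7 guard cell markers was 121 to 145 FPKM at ZT9 and 80.1 to 105 FPKM at ZT21, with 2 of 7 called lower (4 after rescaling). GC1 fell by 0.82 and SLAC1 fell by 0.58 on the log2 scale. The SLAC1 call was lost without the first library of ZT21 (adjusted p = 0.0582). Phloem markers summed to 638 to 733 FPKM against 1052 to 1108 FPKM, with 3 of 6 higher, and 3 higher and 2 lower after rescaling. The 3 rises were those of both sucrose exporters named above and the regulator APL (0.50). None of 7 xylem markers was called by limma as deposited, also at an unadjusted p under 0.05 (1 fell after rescaling), and their sums were 40.7 to 41.9 FPKM against 32.7 to 42.6 FPKM. Epidermis markers summed to 773 to 969 FPKM against 668 to 710 FPKM, with 2 of 5 tested lower (3 after rescaling), ATML1 among them (−0.88), and FDH higher (0.31, not called after rescaling). Without the first library of ZT9, 1 of the 5 was lower. The part of these shifts in the other results was not tested.

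The tissue label was checked against root and flower genes. CASP1 and PLT1, root markers, were at 0 in all 6 libraries and COBL9 was at 0 in all but 1 (0.0994 FPKM). SHR, which is also used as a root marker, rose from 4.06, 4.67 and 3.52 FPKM to 11.7, 11.5 and 10.8 FPKM. The petal and stamen genes AP3 and PI did not exceed 0.158 FPKM, and the flower markers together summed to 0.818 to 2.74 FPKM.

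Promoter windows of 250 bases before and 50 bases after the transcript start were searched on both strands for 7 short motifs. The evening element was present in 5.71% of the 17703 windows, in 29.5% of those of the 699 genes that fell at least 2-fold and in 2.89% of those of the 1348 that rose at least 2-fold. Among the 181 genes that fell at least 4-fold (1.02% of genes tested) it was present in 39.8%, and among the 218 that rose that far (1.23%) in 0.917%. The G-box was present in 9.50% of all windows, 17.0% of those that fell and 10.4% of those that rose. The ABRE-like motif ACGTGT, which can overlap the G-box, was found in 13.9% of all windows, in 152 of the 699 that fell (21.7%) and in 243 of the 1348 that rose, and at the 4-fold level in 24.3% of falls and 24.8% of rises. It was thus more frequent in both sets than in all windows. The telo box AAACCCTA, known from ribosomal and cell cycle genes, was found in 8.91% of all windows against 2.86% and 7.12%. AAGCCC and ATGGGCC were likewise less frequent in both sets than in all windows, and GATAAG was at 16.0%, 21.6% and 14.4%. These are shares, with no test.

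**Figure D4:**
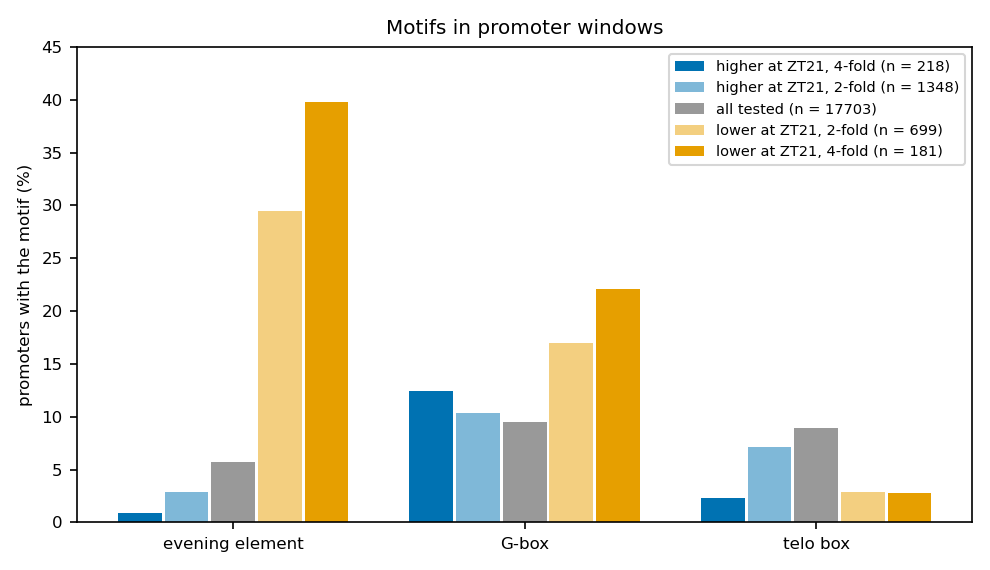
Share of promoter windows of 300 bases that hold the evening element, the G-box or the telo box, in percent, for genes that rose or fell at least 4-fold or 2-fold between ZT9 and ZT21 and for all tested genes. The evening element runs from 0.917% in the strongest rises to 39.8% in the strongest falls.

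Within the gene lists, 6 of the 11 cold genes that fell held an evening element and 6 a G-box. In starch breakdown 8 of 13 genes that fell held the evening element, against 0 of 5 that rose. Of the day and evening clock genes that fell 4 of 9 held it, of the clock outputs 4 of 5. Of the day and evening genes that rose 1 of 3 held it, as did 1 of the 7 morning clock genes and 1 of the 9 starch synthesis genes that fell and 2 of the 11 nitrogen genes that rose. None of the 17 antenna genes that fell held it, and 7 of them held a G-box. GI and PRR7 hold neither motif in this window, although both dropped to 0 or near 0.

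In old leaves (35 DAS) the same comparison gave 5159 rises (27.5% of 18729 genes) and 1999 falls (10.7%). In the same fit of all 36 libraries young leaves had 4889 rises (26.1%) and 2039 falls (10.9%). Rises common to both ages numbered 2839, which is 58.07% of those in young and 55.03% of those in old leaves, and common falls numbered 1103, or 54.1% and 55.18%. The difference between the ages, tested as an interaction, was called in 1754 genes (9.37%). The log2 change was higher at 35 DAS than at 21 DAS in 664 (3.55%) and lower in 1090 (5.82%). The first number was 427 and 418 without the first or second young library of ZT9, 436 without the first young library of ZT21, and 385 and 421 without the first or the third old library of ZT21. The 2 ages share no library.

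Of the 15 nitrogen genes, the log2 change of 8 was called lower in old leaves and that of none higher by the limma interaction test (1 at an unadjusted p under 0.05). NIA1, which rose in young leaves, was between 14.1 and 19.6 FPKM at ZT9 and between 5.96 and 11.3 FPKM at ZT21 in old leaves, a difference of −4.96 ± 0.42 between the ages. NIA2 still rose, from between 149.5 and 240.9 FPKM to between 439.9 and 659.6 FPKM, by a smaller amount (difference −3.02 ± 0.35). BT1 was between 34.5 and 47.3 FPKM at ZT9 and 2.95 and 10.4 FPKM at ZT21, opposite to its young rise (−4.47 ± 0.40), and BT2 rose by 1.86 in place of 5.11. NIR1 and UPM1 differed by −2.22 and −2.02, and GLT1 by −2.12.

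Auxin and shade genes differed in the other direction, with the change of 7 of 16 called higher and none lower by the same test, also unadjusted. IAA29 in old leaves was already low at ZT9 (2.52 to 5.37 FPKM) and at 1.16 to 2.73 FPKM at ZT21 (difference 2.92 ± 0.48). PIF4 was similar at midday at both ages but higher at night in old leaves, 8.60 to 15.6 FPKM (difference 3.10 ± 0.39). SAUR22, a small auxin-induced gene, went from 27.8, 23.7 and 34.0 FPKM to 2.67, 1.54 and 3.85 FPKM in young leaves and did not exceed 1.53 FPKM in any old library at either time (difference 3.05 ± 0.43). LTP3, a lipid transfer protein, was under 8 FPKM in young leaves and not called there (0.95), and stood between 12.2 and 82.9 FPKM at ZT9 in old leaves (difference −4.54 ± 1.1).

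**Figure D5:**
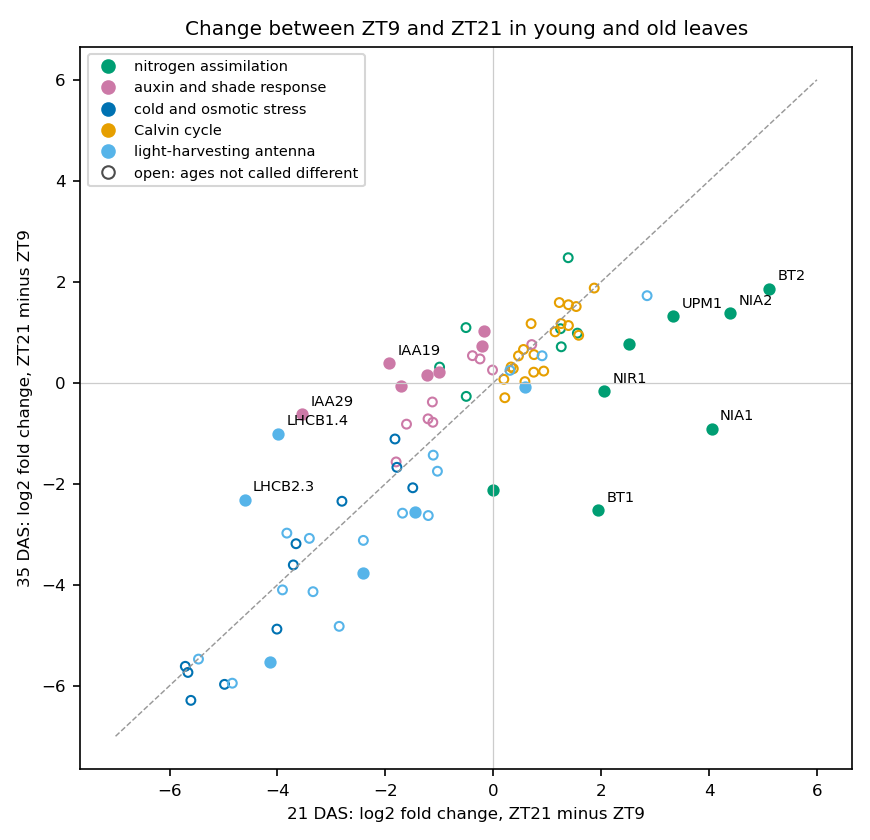
Log2 fold change from ZT9 to ZT21 at 35 DAS against that at 21 DAS for the members of 5 gene lists, with the dashed line of equal change. Filled points are genes whose change was called different between the ages. The filled nitrogen points lie below the line and the filled auxin and shade points above it, while cold and Calvin cycle genes hold no filled point.

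No cold gene, Calvin cycle gene or photorespiration gene was called different between the ages by the limma interaction test, which does not show that they were the same. At an unadjusted p under 0.05, the change of 1 cold gene and 3 Calvin cycle genes was lower in old leaves and that of 1 photorespiration gene was higher. All 11 cold genes fell in old leaves too (median −3.61), and 11 of the 19 Calvin cycle genes rose (median 0.66). In the clock, the young change of RVE8 was larger (difference −1.17 ± 0.24), while PRR7 reached 0.613 to 2.87 FPKM in old night libraries (1.23 ± 0.31) and RVE7 fell less (1.80 ± 0.36). LNK2 fell in young and rose in old leaves (difference 2.203 ± 0.42). BAM3 rose in young leaves and was between 427 and 812 FPKM at ZT9 and 345 and 520.1 FPKM at ZT21 in old leaves (−2.08 ± 0.27), and GBSS1 was higher at ZT9 in old leaves (16.4 to 55.2 FPKM, difference −2.55 ± 0.52).

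Transcripts of single loci were compared as well. Of 21827 transcripts tested, 8587 (39.3%) were called, 27.6% higher and 11.7% lower at ZT21. In 28 of 3246 loci with several tested transcripts (0.863%), 1 transcript rose and another fell. Without the first library of ZT9 the number was 14, and after rescaling it was 38. How reads of overlapping transcripts were assigned is not given in the sources used here, so these values are uncertain.

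In AT3G15350, transcript 1 went from 0.000463, 0.000374 and 0.000669 FPKM to 6.07, 6.45 and 3.56 FPKM (2.64), and transcript 2 from 11.8, 11.3 and 6.93 FPKM to 2.50, 0.0544 and 4.53 FPKM (−1.98), while the gene as a whole was not called (−0.31). AT1G63770 was similar, with transcript 3 rising from 4.39, 0.978 and 0.0024 FPKM to 27.5, 27.2 and 20.6 FPKM and transcript 4 falling in share from 71.6% to 47.3% of the locus, at a gene change of 0.06 that was not called. In AT5G19090, transcript 2 rose (2.26 ± 0.38) and transcript 3 fell from 8.14, 7.61 and 5.14 FPKM to 0.00317, 0.00251 and 2.71 FPKM (−2.34 ± 0.75). In the third library of ZT21 both transcripts had the same value. PRIN2, a plastid protein of redox signalling to photosynthesis genes, rose as a gene (0.84), with transcript 1 higher (1.46 ± 0.23) and transcript 2 lower (−1.77 ± 0.65). Transcript 2 stood at 7.05, 1.14 and 4.84 FPKM against 0.038, 0.00134 and 1.45 FPKM, so its groups overlap.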

How the data were processed

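Polyadenylated RNA of rosette leaves was sequenced from TruSeq libraries on a NovaSeq instrument, per the labels' protocols. The submitters' processing notes name STAR 2.3.0e, HTSeq, edgeR 3.12.1 and the TAIR10 build, with no role or order given. The authors deposited FPKM per transcript for 41342 transcripts at 33279 loci. FPKM holds no counts, so depth was only estimated, and no count model was used.

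FPKM were summed over the transcripts of a locus. Genes with at least 1 FPKM in 3 libraries were tested on log2(FPKM + 1) with limma 3.58.1 in R 4.3.3, fitted to the 18 young libraries with 1 mean for each time, and p-values were adjusted over all genes by Benjamini and Hochberg with a threshold of 0.05. The difference between ages came from a fit of all 36 libraries. The steps were tested on simulated data. With 3 libraries against 3, an exact permutation test of a single gene cannot go below 0.1, so none is given. Alternatives covered the pseudocount, the filter, rescaling, the libraries fitted, the replicate block and each left-out library. Locus positions are those of TAIR10, and 99.997% of 32803 loci overlapped the same identifier in the TAIR10.1 reference used for promoter sequences.

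The members and the 37 gene lists (483 loci, 459 tested) were chosen with earlier results of these data known. Named genes were the 12 highest and 12 lowest log2 changes, the 5 most abundant 2-fold changes in each direction, the 5 highest and 5 lowest differences between ages, up to 4 called members of each list, all members of the clock, starch and nitrogen lists, and 4 loci with opposite transcripts. Other list members are named by value where a list is described.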

Additional observations from a re-analysis of the deposited data

Results flagged for a closer look

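The change from ZT9 to ZT21 was called different between 35 DAS and 21 DAS in 72 of the genes described. The test was limma's of the difference itself, with Benjamini-Hochberg adjustment over all genes. Over all 18729 genes tested, 1754 (9.37%) were called. The genes described include the 5 highest and 5 lowest differences, named by this same test, so the 72 partly follow from the naming. Each value is the log2 change at 35 DAS minus that at 21 DAS. The call held in all 12 fits that left out 1 library each for 42 of them, given first. In the clock and its outputs these were RVE8 (−1.17), RVE7 (1.80), LNK2 (2.203), PRR7 (1.23), CDF2 (1.097), CDF3 (1.82), COL1 (−1.66) and FT (−2.22). In light signalling and photosynthesis the differences were PIF4 (3.10), BBX24 (2.35), LHCB2.3 (2.29), PSAD1 (−1.45) and GUN4 (−1.05). In starch and sugar genes they were BAM9 (−1.31), BAM3 (−2.08), LDA (−0.79), LSF2 (−1.01), SS2 (−0.73), GBSS1 (−2.55) and SWEET12 (−1.48). Nitrogen and sulfur genes, each with a lower log2 change at 35 DAS, were NIA1 (−4.96), NIA2 (−3.02), NIR1 (−2.22), UPM1 (−2.02), GLT1 (−2.12), BT1 (−4.46), BT2 (−3.25) and APR2 (−1.59). Auxin and gibberellin genes, each with a higher log2 change at 35 DAS, were SAUR22 (3.05), IAA29 (2.92), IAA19 (2.31) and GA20OX1 (1.63). The remaining genes that held were AT1G49200 (−1.77), LTP3 (−4.54), BCH1 (−1.59), MYB111 (−1.57), HAB1 (−1.23), JAZ9 (−1.56), TIP1;2 (1.34), FAD3 (−1.33), GAPC2 (−0.98) and SLAC1 (1.07). The other 30 lost the call without at least 1 library. Among these the log2 change was higher at 35 DAS for AT3G55240 (2.63), AT1G69140 (2.08), LHCB1.4 (2.98), DIN1 (2.80), ELF4 (1.27), CO (1.45), ASN1 (1.06), EXPA11 (1.49), XTH6 (1.54) and IAA5 (1.63). It was lower at 35 DAS for AT5G66053 (−5.73), AT1G64500 (−0.89), AT3G19030 (−1.87), LHCB1.5 (−1.39), LHCB5 (−1.12), PDF1.2c (−6.93), CHE (−1.14), HY5 (−1.09), PSAO (−0.93), APS1 (−0.67), SBE2.1 (−0.85), SEX4 (−1.02), ASN2 (−1.76), SIR (−0.68), BCH2 (−1.02), ARR8 (−0.74), AOC2 (−1.55), SSI2 (−0.56), FIB1 (−0.62) and FIB2 (−1.06). Among the 12 fits the call of AT5G66053 held in 2, that of AT3G55240 in 1, of LHCB1.4 in 6, of DIN1 in 4 and of PDF1.2c in 9. Others of the 30 also lost the call in most fits, among them SIR, CHE, APS1, ARR8, EXPA11 and XTH6.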

How the results depend on the processing

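As deposited, 6126 genes rose and 2556 fell. A pseudocount of 0.1 gave 6078 and 2511, one of 5 gave 6122 and 2572, no filter 6154 and 2600, a filter at 5 FPKM 5545 and 2210, all 36 libraries 4889 and 2039, and only the 6 libraries 5425 and 2246. Rescaling gave 4327 and 4017. Changes of at least 2-fold numbered 710 and 430 with a pseudocount of 5, against 1348 and 699, as a larger pseudocount shrinks low genes. Leaving out 1 library gave 5222 to 5997 rises and 2144 to 2563 falls. Differences between ages ranged from 385 to 940 higher (664 with all libraries) and 727 to 1248 lower (1090), and loci with opposite transcripts from 14 to 30 (28), with 38 after rescaling. The cause was not tested. Over all lists, 131 to 163 members rose and 142 to 196 fell under these alternatives, against 163 and 165. Of 338 single genes called in young leaves, 298 were called in all 6 fits without a library. The age difference of AT1G69140 turned from 2.08 to −0.89 at a pseudocount of 0.1 (adjusted p = 0.628, limma).

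With the spread of all 36 libraries the calls in some lists fell by over 1.5 times: abscisic acid had 1 fall, jasmonate 2 rises, cell wall growth 3 rises, salicylic acid and defence 1 rise and nitrogen no fall by limma (1 at an unadjusted p under 0.05). Named genes called with the young libraries but not with all 36 were LNK3, LHCA6, PETC, RBCS3B, GAPA2, CFBP1, TKL1, CP12-1, CA1, ISA1, MEX1, GLN1;1, GLN1;3, SDI1, ZEP, EXPA1, HAI2, PR1, PR2, PR5, ALD1, FAD8, GC1, FDH, PDF1.2c and AT1G31258 (adjusted p of 0.056 to 0.637, limma).

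The labels share replicate numbers across times. Deviations of same-numbered libraries of ZT9 and ZT21 correlated at −0.164, −0.262 and 0.029, so the numbers were not taken to pair samples. With the replicate block, 6049 genes rose and 2531 fell. FPKM without counts limits what low genes can show.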
